A study of Drosophila melanogaster with 69 samples.

Results

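Of the 69 bulk RNA-seq libraries of the study, 6 were compared here, 3 from ovaries and 3 from testes of wild-type Oregon R Drosophila melanogaster at day 3 of adult life. Both tissues came from flies with no mutation or transgene named in the labels, raised at 25 °C. The labelled differences between the groups were the sex of the fly, the organ dissected and the number of organs pooled. Each library was a pool of whole organs, about 20 to 25 pairs of ovaries or 50 to 60 pairs of testes, so that germline, somatic gonad and any attached tissue were sequenced together. Poly(A) RNA was captured and read as 100 bp pairs on a DNBSEQ instrument, and each library has one deposited table of 17807 genes. The libraries held 60955939, 75024362 and 144340740 expected counts in ovary replicates 1, 2 and 3, against 136937952, 84741040 and 32774814 in testis replicates 1, 2 and 3. The question was which genes and gene families account for the difference between the ovary and the testis. Levels are given as TPM, a share of all transcripts, which are scaled for gene length within a library. Differences are log2 fold changes of ovary over testis from edgeR, fitted on the counts of all 33 wild-type libraries of days 1 to 11. A gene was called at an adjusted p under 0.05 and a fold of at least 1.5.

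The Drosophila ovary builds large eggs. Germline nurse cells load the oocyte with RNA and ribosomes, and the surrounding follicle cells secrete yolk, vitelline membrane and chorion. The testis carries germ cells from stem cells through spermatocytes, which transcribe most of the genes for sperm ahead of meiosis under testis-specific forms of general transcription factors, to spermatids, which build the flagellum and replace histones with protamine-like proteins. Many sperm genes are copies of broadly used genes, and the X is the single sex chromosome that both sexes share, with males alone carrying a Y.

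The labelled tissues matched their defining markers. The sum of the 12 chorion genes was 34447, 14900.3 and 9503 TPM in ovaries, against 11.0, 11.4 and 9.61 TPM in testes, and the 25 sperm tail genes summed to 9.75, 2.71 and 0.37 TPM in ovaries, against 45176, 33538 and 39717 TPM in testes. Ovary replicate 3 stood apart from the other ovaries: its 11 vitelline membrane genes summed to 2480.3 TPM, against 57057 and 32284 TPM in ovary replicates 1 and 2, and its 4 yolk genes to 787 TPM, against 10251 and 7026 TPM. RNAs of the mitochondrial genome took 18.7% of its TPM, and 4.29% and 6.10% in the other ovaries. Testis replicate 1 stood apart by gene length. Its deviations from the testis mean correlated with log2 length at r = -0.57 over 14995 genes. The values were 0.32 and 0.33 in the other testes (across genes, which are not independent). All deviations were taken from the mean of the same testes, so an opposite sign in the others is partly built in. The genes of other tissues were also present. The 12 accessory gland genes summed to 0.66, 0.05 and 0.04 TPM in ovaries, against 839.5, 1658 and 147.3 TPM in testes, and 8 of them had no count in any ovary. The 12 muscle genes summed to 409.3, 784.6 and 110.8 TPM in ovaries, against 327.7, 526.5 and 288.2 TPM in testes, ranges that overlapped. Sums over 6 fat body genes were at most 5.23 TPM in ovaries and 7.28 TPM in testes, and over 7 midgut genes at most 0.37 TPM in ovaries and 0.38 TPM in testes. The part these differences between libraries and tissues play in the results was not tested. In whole organs, fewer cells of a type and less RNA per cell cannot be told apart.

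The 2 organs differed at most genes. Of 14995 genes tested, 5595 were called higher in ovaries (37.3%) and 6736 higher in testes (44.9%). At a fold of at least 8, 2277 genes were called higher in ovaries (15.2%) and 5602 higher in testes (37.4%). The ovary count at that fold was 882 with DESeq2, 1302 with the day 3 libraries alone and 1295 with log2(TPM + 1). The testis count at that fold was 2753 with log2(TPM + 1). Over all tested genes, called or not, the TPM ranges did not overlap at 4893 with ovaries above (32.6%) and at 6545 with testes above (43.6%). Without ovary replicate 3 the calls were 5314 and 6516, and without testis replicate 1 they were 5513 and 6531. The balance of the directions depended on the scaling. With DESeq2 size factors, which moved the median log2 difference of all genes to -1.73, against -0.45 with the TMM scaling used here, 29.9% of the calls were higher in ovaries and 70.1% in testes, against 45.4% and 54.6%. Log2 fold changes of level between ovary and testis were thus shifted down by 1.28 at the median gene with DESeq2, less for some genes with no count in one organ, and some with small positive values changed sign. Among the tested genes 2328 had no count in any library of one organ. Their fitted folds depend on the model's prior count, so a bound is given for those named, against a floor of 3 counts per library.

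The organs also differed in how their RNA was spread over genes. The most abundant genes that together made up 50% of TPM numbered 202, 101 and 95 in ovaries, against 250, 311 and 317 in testes. Genes at 1 TPM or more numbered 7835, 7879 and 7383 in ovaries, against 10892, 11281 and 11193 in testes. The 2277 genes at least 8-fold higher in ovaries carried 52.7%, 58.1% and 56.0% of TPM in ovaries, against 4.99%, 3.97% and 4.27% in testes. The 5602 genes at least 8-fold higher in testes carried 0.32%, 0.31% and 0.17% of TPM in ovaries, against 70.1%, 66.3% and 67.2% in testes. Near on-off genes were mostly of the testis: 86 genes were at 10 TPM or more in every ovary and under 0.5 TPM in every testis, of 5418 genes at 10 TPM or more in every ovary. In the other direction 1968 genes were at 10 TPM or more in every testis and under 0.5 TPM in every ovary, of 5463 such testis genes, and 315 of these 1968 were non-coding RNAs.

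**Figure D1:**
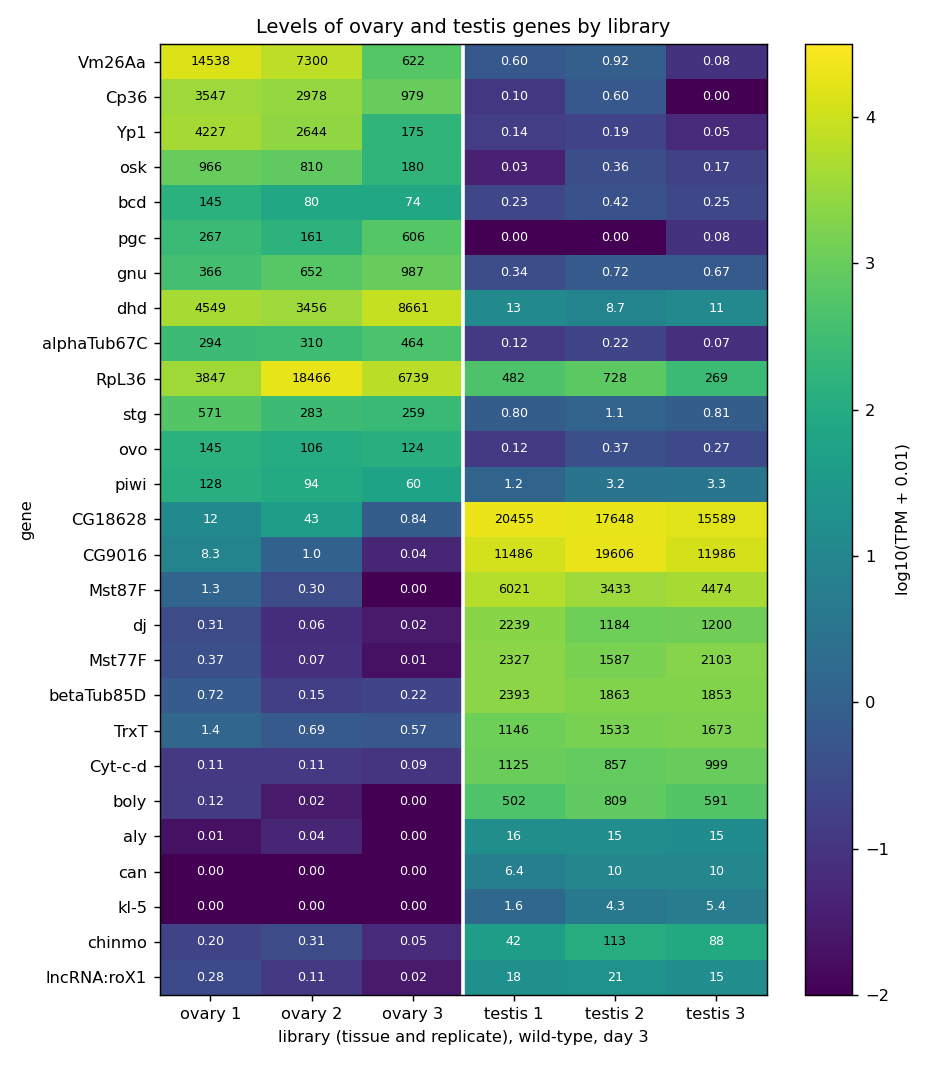
TPM of 27 named genes in each of the 6 day 3 libraries, ovaries left and testes right, with the value printed in each cell and the colour on a log10(TPM + 0.01) scale. The upper 13 genes are high in the 3 ovaries and the lower 14 in the 3 testes. Vm26Aa and Yp1 are lower in ovary 3 than in the other ovaries, and dhd and pgc are higher there.

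Eggshell and yolk genes were among those with wide differences on the ovary side. All 12 chorion genes, all 11 vitelline membrane genes and all 4 yolk genes tested were called higher in ovaries at a fold of at least 8, as were 15.2% of all genes, with medians of 12.65, 12.17 and 10.96 on the log2 scale, beside -0.45 over all genes. Vm34Ca, a major vitelline membrane protein, had 25956, 13275 and 1215 TPM in ovaries, against 1.33, 2.89 and 0.12 TPM in testes (log2 fold change 12.99, standard error 1.90, edgeR adjusted p = 8.3e-07). Cp36, a chorion protein of the amplified gene cluster on the X, had 3547, 2978 and 979 TPM in ovaries, against 0.10, 0.60 and 0 TPM in testes (log2 fold change 13.38, standard error 1.76, edgeR adjusted p = 1.7e-07). Yp1, a yolk protein, had 4227, 2644 and 175 TPM in ovaries, against 0.14, 0.19 and 0.05 TPM in testes (log2 fold change 13.98, standard error 1.99, edgeR adjusted p = 5.7e-07). The gene yl, which encodes the yolk receptor of the oocyte, had 333, 283 and 178 TPM in ovaries, against 0.34, 1.41 and 1.10 TPM in testes (log2 fold change 8.33, standard error 0.55, edgeR adjusted p = 2.1e-12). None of these ranges overlapped. Levels varied widely among ovaries. Vml, another vitelline membrane gene, had 1556, 559 and 7.88 TPM in ovary replicates 1, 2 and 3, and Cp7Fc, a chorion gene, had 4963, 692 and 67.9 TPM. For both, replicate 3 was lowest and replicate 1 highest, as for 10 of the 11 vitelline membrane genes. The exception was clos, at 74.6, 75.4 and 55.2 TPM in ovaries, against 2.42, 1.88 and 1.99 TPM in testes (log2 fold change 5.15, standard error 0.35, edgeR adjusted p = 3.4e-12), the most even of them among ovaries.

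Of 23 maternal genes, which act in axis formation and the germ plasm, 18 were called higher in ovaries and 2 in testes (median 4.70). At a fold of at least 8, 16 were called higher in ovaries. Across all genes the shares were 37.3% in ovaries, 44.9% in testes, and 15.2% in ovaries at that fold. The gene for the germ plasm organiser, osk, had 966, 809.7 and 180.1 TPM in ovaries, against 0.03, 0.36 and 0.17 TPM in testes (log2 fold change 11.93, standard error 1.09, edgeR adjusted p = 3.6e-10). That of the anterior determinant, bcd, had 145, 80.5 and 74.1 TPM in ovaries, against 0.23, 0.42 and 0.25 TPM in testes (log2 fold change 8.47, standard error 0.37, edgeR adjusted p = 3.3e-15). Polar granule component, pgc, which keeps early germ cells silent, had 267, 161 and 606 TPM in ovaries, against 0, 0 and 0.08 TPM in testes (log2 fold change 14.34, standard error 1.35, edgeR adjusted p = 5.6e-10). The posterior determinant nanos had 285, 238 and 1275 TPM in ovaries, against 1.13, 3.12 and 2.84 TPM in testes (log2 fold change 8.46, standard error 0.97, edgeR adjusted p = 1.6e-08). All 4 were far apart between the organs, but osk was lowest in ovary replicate 3 while pgc and nanos were highest there. The receptors Tl and tor, which pattern the dorsoventral axis and the termini of the embryo, had log2 fold changes of 6.79 and 5.79 (edgeR adjusted p = 2.4e-12 and 3.3e-13). Not every gene of the list was higher in ovaries. The RNA localisation gene exu had 322, 148 and 279 TPM in ovaries, against 1872, 2338 and 2393 TPM in testes (log2 fold change -3.33, standard error 0.31, edgeR adjusted p = 4.4e-10). The gene pip, a sulfotransferase that acts in dorsoventral patterning, had 2.56, 2.35 and 0.55 TPM in ovaries, against 5.82, 4.79 and 6.08 TPM in testes (log2 fold change -1.42, standard error 0.48, edgeR adjusted p = 0.0089). The call at pip was lost without ovary replicate 3 (-1.05 on the log2 scale). The values for cup, orb and tud overlapped between the organs and were not called, with log2 fold changes of -0.04, -0.26 and 0.99 (edgeR adjusted p = 0.93, 0.48 and 0.096), but tud was called higher in ovaries without ovary replicate 3 (1.35). Calls in testes were gained at cup with DESeq2 (-1.34) and at orb with DESeq2 (-1.56) and with no filter (-0.83). With DESeq2, 17 of the 23 were called higher in ovaries and 4 in testes, which were exu, pip, cup and orb.

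Genes for the end of meiosis and egg activation were called higher in ovaries at 10 of 10, with a fold of at least 8 at 8 (median 4.83). Over all genes, the shares called higher in ovaries were 37.3%, and 15.2% at that fold. The regulator gnu, which activates the kinase png at egg activation, had 366, 652 and 987 TPM in ovaries, against 0.34, 0.72 and 0.67 TPM in testes (log2 fold change 10.54, standard error 0.82, edgeR adjusted p = 2.9e-11). The gene png itself had 54.5, 50.9 and 103 TPM in ovaries, against 0.98, 1.10 and 0.79 TPM in testes (log2 fold change 6.42, standard error 0.59, edgeR adjusted p = 3.5e-10). The female meiotic activator of the anaphase-promoting complex, cort, had 57.9, 45.0 and 112 TPM in ovaries, against 0.36, 0.45 and 0.21 TPM in testes (log2 fold change 7.89, standard error 0.65, edgeR adjusted p = 6.8e-11). CycB, a mitotic cyclin loaded into the egg, had 1248, 960.3 and 1649 TPM in ovaries, against 39.4, 54.6 and 60.1 TPM in testes (log2 fold change 4.91, standard error 0.41, edgeR adjusted p = 7.9e-11). Each was higher in every ovary than in any testis, and gnu, png and cort were all highest in ovary replicate 3. Among abundant ovary RNAs was dhd, a thioredoxin that acts on sperm chromatin in the fertilised egg, at 4549, 3456 and 8661 TPM in ovaries, against 12.96, 8.70 and 11.2 TPM in testes (log2 fold change 8.86, standard error 0.72, edgeR adjusted p = 5.1e-11). The embryonic linker histone BigH1 had 407, 356 and 922 TPM in ovaries, against 55.7, 46.2 and 48.5 TPM in testes (log2 fold change 3.77, standard error 0.53, edgeR adjusted p = 5.3e-07).

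Ribosomal protein genes were the largest family on the ovary side by abundance. Of 85 tested, 81 were called higher in ovaries, 75 of them at a fold of at least 8, with log2 fold changes between 1.63 and 5.19 (median 3.55 over the 85). Over all genes, 37.3% were called higher in ovaries, and 15.2% at a fold of at least 8. Under DESeq2, 80 of the 85 were called higher in ovaries and 4 in testes. Their median log2 fold change there was 2.29, which is below 8-fold, so the count at that fold depends on the scaling. Together the 85 genes took 19.04%, 32.98% and 21.9% of TPM in ovaries, against 2.92%, 1.97% and 1.83% in testes. Of the 12 genes with the highest mean TPM among those at least 8-fold higher in ovaries, 7 encode ribosomal proteins, 3 are vitelline membrane genes and the others are the translation elongation factor eEF1alpha1 and the large ribosomal RNA of the mitochondria, mt:lrRNA. RpL41, a subunit of the large ribosome, had 8972, 17725 and 29099 TPM in ovaries, against 2595, 1222 and 1441 TPM in testes (log2 fold change 3.60, standard error 0.85, edgeR adjusted p = 4.2e-04). The subunit gene RpL36 had 3847, 18466 and 6739 TPM in ovaries, against 482, 728 and 269 TPM in testes (log2 fold change 4.40, standard error 0.83, edgeR adjusted p = 3.1e-05). The gene eEF1alpha1 had 10058, 8056 and 2001 TPM in ovaries, against 578, 719.9 and 697 TPM in testes (log2 fold change 3.39, standard error 0.44, edgeR adjusted p = 1.3e-07). Every ovary was above every testis for all 81 genes. The 4 ribosomal genes called higher in testes were RpL10Aa, RpS10a, RpS19b and RpS28a, with RpS19b at 1.66, 3.33 and 1.63 TPM in ovaries, against 108, 111 and 111 TPM in testes (log2 fold change -5.47, standard error 0.44, edgeR adjusted p = 4.6e-11). RpS28a had no count in any ovary and was at least 90.9-fold higher in testes, taking 3 counts per library as the floor. The copy RpL22-like, which the list of 85 does not hold, was also higher in testes, at 0.04, 0.03 and 0.02 TPM in ovaries, against 116, 111 and 130.2 TPM in testes (log2 fold change -11.75, standard error 0.79, edgeR adjusted p = 2.8e-12). The RNA mt:lrRNA had 18184, 28162 and 126253 TPM in ovaries, against 9917, 6598 and 12079 TPM in testes (log2 fold change 3.01, standard error 0.78, edgeR adjusted p = 0.0011), and most of its mean in ovaries came from replicate 3, without which it was not called (1.30 on the log2 scale). It was not called with the day 3 libraries alone either (2.25).

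Genes of DNA replication and the mitotic cycle were called higher in ovaries at 15 of 16, at a fold of at least 8 for 13, and none was called higher in testes (median 4.25). Over all genes, 37.3% were called higher in ovaries, 15.2% at a fold of at least 8, and 44.9% higher in testes. The Cdc25 phosphatase stg, which drives mitotic entry, had 571, 283 and 259 TPM in ovaries, against 0.80, 1.13 and 0.81 TPM in testes (log2 fold change 8.77, standard error 0.43, edgeR adjusted p = 1.9e-14). Orc1, the largest subunit of the origin recognition complex, had 119, 61.8 and 164 TPM in ovaries, against 0.15, 0.34 and 0.49 TPM in testes (log2 fold change 8.84, standard error 0.61, edgeR adjusted p = 4.7e-12). The helicase subunit Mcm3 had 77.1, 48.7 and 183 TPM in ovaries, against 1.09, 0.99 and 0.63 TPM in testes (log2 fold change 7.09, standard error 0.80, edgeR adjusted p = 1.3e-08). Each was far higher in every ovary than in any testis. The exception was twe, the Cdc25 of meiosis, with 85.3, 42.6 and 52.2 TPM in ovaries, against 45.4, 92.3 and 106 TPM in testes (log2 fold change -0.24, standard error 0.29, edgeR adjusted p = 0.45), where the ranges overlapped. It was called higher in testes with DESeq2 (-1.55), with no filter (-0.82) and with the day 3 libraries alone (-0.98).

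Genes of the piRNA pathway, the small RNA defence of the germline against transposons, were called higher in ovaries at 21 of 25, at a fold of at least 8 for 10, and at 1 in testes (median 2.79). Over all genes, 37.3% were called higher in ovaries, 15.2% at a fold of at least 8, and 44.9% higher in testes. Piwi itself had 128, 94.2 and 60.3 TPM in ovaries, against 1.25, 3.23 and 3.31 TPM in testes (log2 fold change 5.37, standard error 0.31, edgeR adjusted p = 3.1e-13). The Piwi-family slicer aub had 53.1, 53.0 and 29.0 TPM in ovaries, against 5.20, 8.83 and 9.02 TPM in testes (log2 fold change 2.72, standard error 0.21, edgeR adjusted p = 2.8e-11). The DEAD-box helicase vas had 257, 135 and 163 TPM in ovaries, against 6.60, 8.12 and 8.35 TPM in testes (log2 fold change 4.74, standard error 0.27, edgeR adjusted p = 1.5e-13). The pair rhi and moon, which mark piRNA clusters and recruit transcription to them, had log2 fold changes of 4.91 and 6.51 (edgeR adjusted p = 1.7e-09 and 2.8e-11). All 5 were separate between the organs. Smaller differences depended on the scaling. With DESeq2 17 were called higher in ovaries and 5 in testes, and mael and Panx, called higher in ovaries here at 0.69 and 0.94 on the log2 scale, had the opposite sign there (-0.60 and -0.34). Both calls were also lost with library size alone (0.37 and 0.62), with no filter (0.12 and 0.37) and with the day 3 libraries alone (-0.05 and 0.20), and that at mael without ovary replicate 1 (0.49). The gene called higher in testes was fs(1)Yb, a somatic factor of the pathway, with 0.66, 1.09 and 0.42 TPM in ovaries, against 1.10, 1.69 and 1.90 TPM in testes (log2 fold change -0.93, standard error 0.36, edgeR adjusted p = 0.022), a call lost without ovary replicate 1 (-0.75) or ovary replicate 3 (-0.77).

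**Figure D2:**
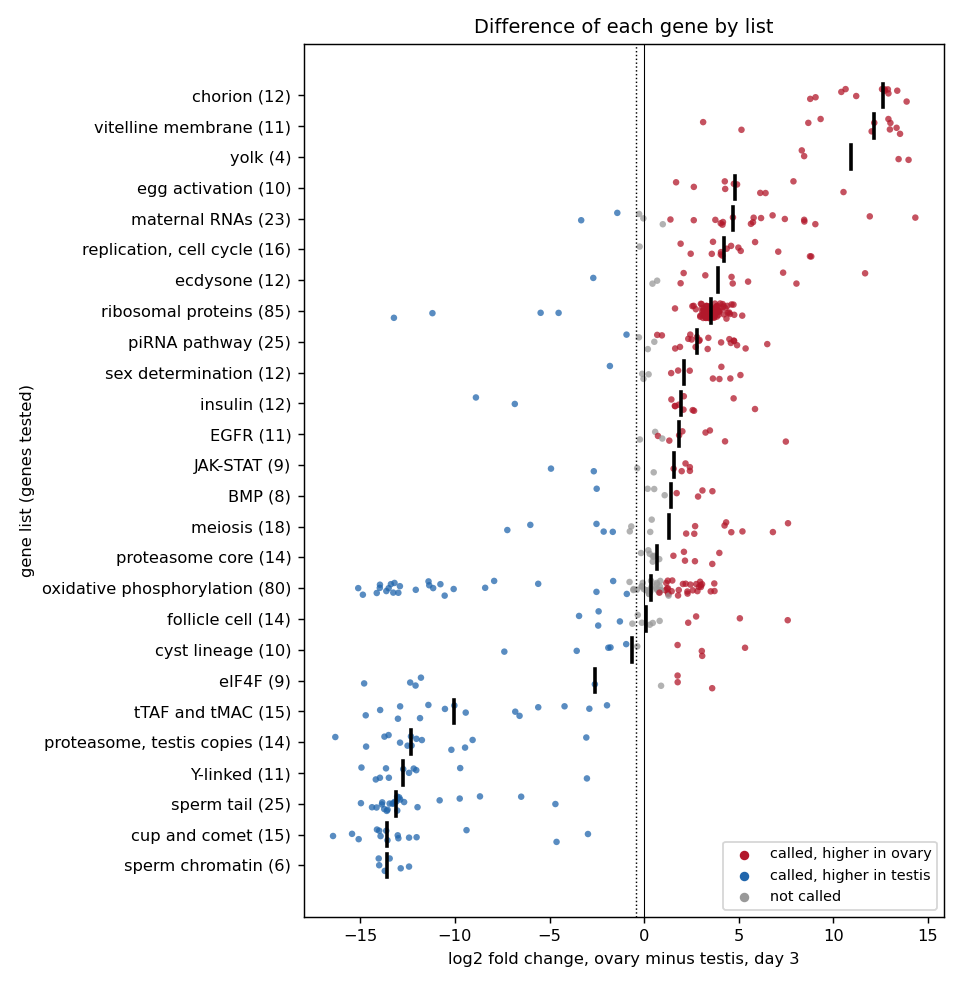
Fitted log2 fold change of ovary over testis at day 3 for each tested gene of 26 lists, ordered by list median (black bars), with the median of all 14995 genes as a dotted line at -0.45. Red genes were called higher in ovaries, blue genes higher in testes and grey genes in neither. Fitted values of genes with no count in one organ are plotted as fitted and are no bound on the fold. The 4 highest lists lie wholly to the right of 0 and the 6 lowest wholly to the left.

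The 12 genes with the highest mean TPM among those at least 8-fold higher in testes were CG18628, CG9016, CG42688, CG17376, CG46059, CG12699, MtnA, Mst84Dc, Mst84Da, CG31988, CG30430 and CG9920. CG18628 had 12.3, 43.3 and 0.84 TPM in ovaries, against 20455, 17648 and 15589 TPM in testes (log2 fold change -9.88, standard error 1.07, edgeR adjusted p = 6.0e-09). CG9016 had 8.32, 1.03 and 0.04 TPM in ovaries, against 11486, 19606 and 11986 TPM in testes (log2 fold change -12.34, standard error 1.80, edgeR adjusted p = 8.1e-07). CG17376 had 1.34, 0.60 and 0.13 TPM in ovaries, against 6604, 12719.8 and 14144 TPM in testes (log2 fold change -14.03, standard error 1.39, edgeR adjusted p = 1.3e-09). MtnA, a metal-binding metallothionein, had 342, 989 and 192 TPM in ovaries, against 11877, 5091 and 5891 TPM in testes (log2 fold change -3.92, standard error 0.85, edgeR adjusted p = 1.8e-04). None of these ranges overlapped, though MtnA was abundant in ovaries too. CG18628 and MtnA mark the epithelium associated with the male gonad, and were listed with Nep4 and mnd of the terminal epithelium of the testis. The 4 genes summed to 410.9, 1081 and 219.1 TPM in ovaries, against 32353, 22784 and 21527 TPM in testes. Of the pair for the terminal epithelium, Nep4, a neprilysin gene, was called higher in testes (-11.55 on the log2 scale, edgeR adjusted p = 3.4e-11), and mnd, an amino acid transporter gene, was called higher in ovaries (log2 fold change 5.12, standard error 0.26, edgeR adjusted p = 2.4e-14). CG9016 and several sperm genes were highest among ovaries in replicate 1, so that folds against the ovary rest on small values that differ between ovary libraries.

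Sperm structure genes were called higher in testes without exception, at a fold of at least 8 for 25 of 25 sperm tail genes and 6 of 6 sperm chromatin genes (medians -13.10 and -13.58), beside 37.4% of all genes. One of them, Dhc93AB, a dynein heavy chain gene, was at 0.02 TPM or less in every library and, with no count in ovaries, is bounded at 3.98-fold only. Mst87F, a cysteine-rich protein of the tail, had 1.28, 0.30 and 0 TPM in ovaries, against 6021, 3433 and 4474 TPM in testes (log2 fold change -13.45, standard error 1.41, edgeR adjusted p = 3.6e-09). Don juan, dj, which lies along the mitochondrial derivatives of the tail, had 0.31, 0.06 and 0.02 TPM in ovaries, against 2239, 1184 and 1199.7 TPM in testes (log2 fold change -13.84, standard error 1.54, edgeR adjusted p = 1.4e-08). The gene loopin-1, an aminopeptidase-like protein of the tail, had 0.57, 0.10 and 0.03 TPM in ovaries, against 1288, 2318 and 3065 TPM in testes (log2 fold change -13.30, standard error 1.47, edgeR adjusted p = 8.3e-09). The 7 S-Lap genes for sperm leucyl aminopeptidases had log2 fold changes between -13.86 and -12.68. The mitofusin of spermatids, fzo, had 0.14, 0.20 and 0 TPM in ovaries, against 71.4, 104 and 114 TPM in testes (log2 fold change -9.75, standard error 0.95, edgeR adjusted p = 1.0e-09). In the chromatin group, the linker-histone-like Mst77F had 0.37, 0.07 and 0.01 TPM in ovaries, against 2327, 1587 and 2103 TPM in testes (log2 fold change -14.00, standard error 1.45, edgeR adjusted p = 2.7e-09). The transition protein Tpl94D had 0.11, 0.21 and 0 TPM in ovaries, against 502, 935 and 951 TPM in testes (log2 fold change -12.86, standard error 1.36, edgeR adjusted p = 3.7e-09). The protamine gene ProtB had 0.33, 0.06 and 0 TPM in ovaries, against 1702, 989 and 1303 TPM in testes (log2 fold change -13.71, standard error 1.37, edgeR adjusted p = 3.3e-09). All stood at or under 1.51 TPM in every ovary. ProtA and ProtB, the Mst84D genes and the S-Lap genes are near-identical copies, and the split of reads among them is uncertain.

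**Figure D3:**
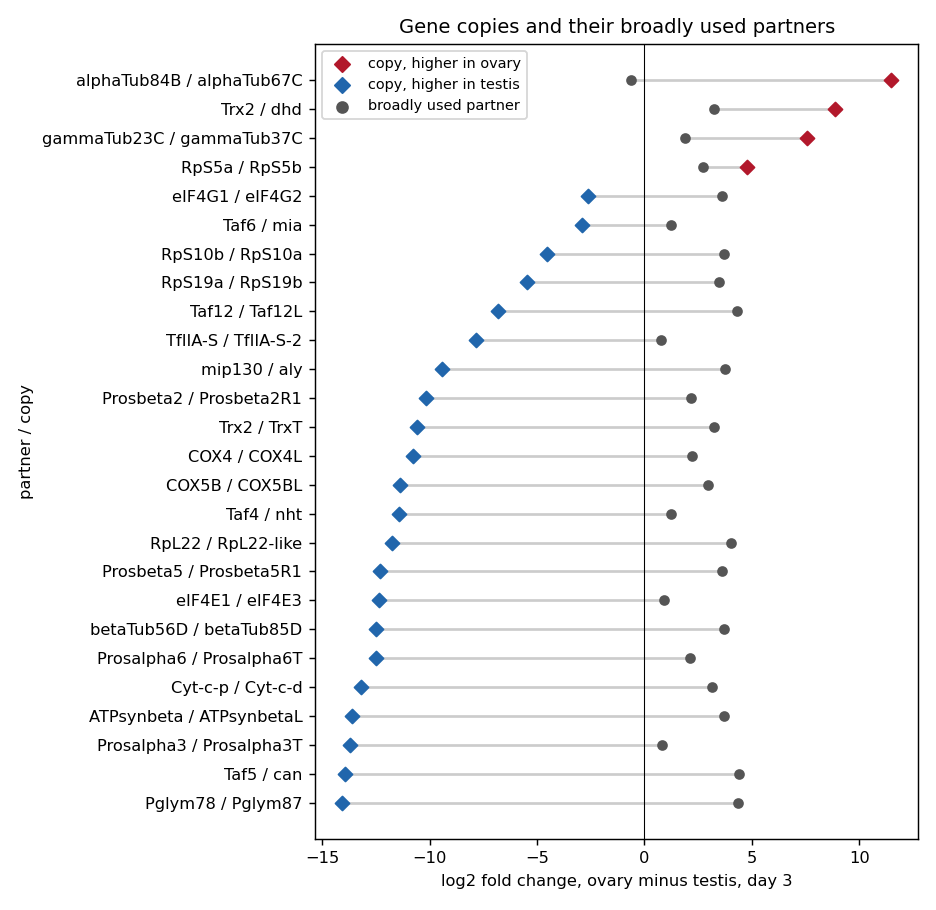
Fitted log2 fold change of ovary over testis at day 3 for 26 pairs of a gene copy (diamonds, red where higher in ovaries and blue where higher in testes) and its broadly used partner (grey circles), joined by a line. The 4 copies at the top lie to the right of 0 and the 22 others to the left, and 22 of the 26 rows have a partner called higher in ovaries. Values of copies with no count in ovaries are as fitted.

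Spermatocyte transcription genes were called higher in testes at 15 of 15, 13 at a fold of at least 8, beside 44.9% and 37.4% of all genes. The list holds testis forms of TFIID subunits (tTAFs), members of the testis meiotic arrest complex (tMAC) and bromodomain partners. Its median was -10.03 on the log2 scale, or -9.30 with the 3 genes absent from ovaries set at their floor. The tMAC subunit aly had 0.01, 0.04 and 0 TPM in ovaries, against 16.4, 15.3 and 14.6 TPM in testes (log2 fold change -9.43, standard error 0.64, edgeR adjusted p = 3.7e-12). The tTAF can had 0, 0 and 0 TPM in ovaries, against 6.37, 10.1 and 10.5 TPM in testes, and with no count in any ovary it was at least 632-fold higher in testes. The bromodomain gene tbrd-1 had 0.06, 0.10 and 0.06 TPM in ovaries, against 77.7, 103 and 99.7 TPM in testes (log2 fold change -10.03, standard error 0.55, edgeR adjusted p = 1.1e-13). These genes were low next to the sperm genes, and their sum was 16.9, 11.0 and 9.60 TPM in ovaries, against 649.5, 545.5 and 601.7 TPM in testes. The 2 with folds under 8 were achi, at 8.88, 5.85 and 4.13 TPM in ovaries, against 18.5, 27.1 and 28.8 TPM in testes, and mia, at 2.40, 1.21 and 1.37 TPM in ovaries, against 12.4, 11.9 and 13.1 TPM in testes, which both kept some RNA in ovaries without overlap. The translation regulator bol, which carries spermatocytes into meiotic division, had 10.2, 6.01 and 1.02 TPM in ovaries, against 525, 1424 and 1312 TPM in testes (log2 fold change -7.67, standard error 0.76, edgeR adjusted p = 1.3e-09). The zinc-finger gene kmg, which keeps somatic genes off in spermatocytes, had 0, 0.01 and 0 TPM in ovaries, against 18.1, 21.4 and 23.4 TPM in testes (log2 fold change -11.43, standard error 0.67, edgeR adjusted p = 3.2e-13).

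The cup and comet genes, which are transcribed after meiosis in spermatids, were called higher in testes at 15 of 15, 14 at a fold of at least 8 (median -13.57, or -12.99 with 3 genes at their floor). Over all genes, the shares called higher in testes were 44.9%, and 37.4% at that fold. The gene soti, a regulator of spermatid caspases, had 0.11, 0.05 and 0.02 TPM in ovaries, against 539, 778 and 785 TPM in testes (log2 fold change -13.57, standard error 1.18, edgeR adjusted p = 1.5e-10). The gene boly had 0.12, 0.02 and 0 TPM in ovaries, against 502, 809 and 591 TPM in testes (log2 fold change -14.12, standard error 1.27, edgeR adjusted p = 3.8e-10). The gene c-cup had 0, 0 and 0 TPM in ovaries, against 238, 143 and 187 TPM in testes and was at least 3526-fold higher in testes. At m-cup, with 33.9, 23.2 and 21.0 TPM in ovaries, against 122, 332 and 320.1 TPM in testes (log2 fold change -2.97, standard error 0.30, edgeR adjusted p = 2.2e-09), ovaries held a measurable level, and the ranges still did not overlap.

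All 11 tested Y-linked fertility genes were called higher in testes, beside 44.9% of all genes, and 6 had no count in any ovary. Their levels were low per length: kl-5, a giant gene for an axonemal dynein heavy chain, had 0, 0 and 0 TPM in ovaries, against 1.59, 4.35 and 5.44 TPM in testes and was at least 1269-fold higher in testes. ARY had 0.02, 0 and 0 TPM in ovaries, against 19.7, 32.3 and 43.0 TPM in testes (log2 fold change -12.43, standard error 0.97, edgeR adjusted p = 5.2e-10). FDY, the lowest, had 0, 0.02 and 0.11 TPM in ovaries, against 0.62, 0.66 and 0.35 TPM in testes (log2 fold change -3.02, standard error 1.13, edgeR adjusted p = 0.016), a call lost without ovary replicate 1 (-2.55) or ovary replicate 2 (-2.62). Testis replicate 1 was the lowest testis for 9 of these 11 genes. The 12th gene of the list, Pp1-Y1, was listed at 0 in all 6 libraries.

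Among the pairs chosen here, a copy high in testes often stood beside a broadly used partner that was not. Several copies were listed as testis, spermatocyte, ovary or maternal forms, so the counts are no test of a pattern. Of 26 copies examined, 22 were called higher in testes, 20 at a fold of at least 8, and 4 higher in ovaries. Across all genes tested, 44.9% were called higher in testes, 37.4% at a fold of at least 8, and 37.3% higher in ovaries. Of their 25 partners, 21 were called higher in ovaries, 1 higher in testes and 3 in neither, and 19 pairs combined a testis copy with an ovary partner. For cytochrome c, the copy Cyt-c-d had 0.11, 0.11 and 0.09 TPM in ovaries, against 1125, 857 and 999 TPM in testes (log2 fold change -13.20, standard error 1.16, edgeR adjusted p = 1.8e-10). Cyt-c-p had 1497, 1038 and 456 TPM in ovaries, against 124, 114 and 103 TPM in testes (log2 fold change 3.15, standard error 0.34, edgeR adjusted p = 5.7e-09). For phosphoglycerate mutase, Pglym87 had 0.13, 0 and 0 TPM in ovaries, against 556, 555 and 452 TPM in testes (log2 fold change -14.05, standard error 1.39, edgeR adjusted p = 1.3e-09). Pglym78 had 239, 209 and 339 TPM in ovaries, against 14.9, 15.6 and 13.7 TPM in testes (log2 fold change 4.38, standard error 0.43, edgeR adjusted p = 1.1e-09). In both pairs each organ had its own main form. For beta-tubulin, betaTub85D of the sperm axoneme had 0.72, 0.15 and 0.22 TPM in ovaries, against 2393, 1863 and 1853 TPM in testes (log2 fold change -12.47, standard error 1.23, edgeR adjusted p = 1.1e-09). The gene betaTub56D had 1580.0, 1298 and 1429 TPM in ovaries, against 122, 139 and 106 TPM in testes (log2 fold change 3.72, standard error 0.36, edgeR adjusted p = 8.2e-10). Thioredoxins took a form for each sex: the copy TrxT had 1.40, 0.69 and 0.57 TPM in ovaries, against 1146, 1533 and 1673 TPM in testes (log2 fold change -10.57, standard error 0.75, edgeR adjusted p = 7.2e-12). Its neighbour on the X, dhd, was the abundant ovary form given above. The partner Trx2 had 205, 232 and 431 TPM in ovaries, against 49.0, 24.2 and 25.5 TPM in testes (log2 fold change 3.25, standard error 0.62, edgeR adjusted p = 4.0e-05). The partner differences of Taf4 and Taf6 were small, at 1.26 and 1.24 on the log2 scale, and had the opposite sign with DESeq2 (-0.04 and -0.06), and neither was called with the day 3 libraries alone (0.52 and 0.50). Taf4 was not called with library size alone (0.92), with no filter (0.68) or without testis replicate 1 (0.90).

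The other ovary copies were the maternal tubulins alphaTub67C and gammaTub37C and the ribosomal gene RpS5b. The gene alphaTub67C had 294, 310.1 and 464 TPM in ovaries, against 0.12, 0.22 and 0.07 TPM in testes (log2 fold change 11.48, standard error 0.79, edgeR adjusted p = 4.1e-12). The gene gammaTub37C had 84.0, 72.5 and 101 TPM in ovaries, against 0.55, 0.54 and 0.42 TPM in testes (log2 fold change 7.56, standard error 0.46, edgeR adjusted p = 5.3e-13). The partner alphaTub84B was the one called higher in testes, at 1040.1, 1081 and 712 TPM in ovaries, against 1105, 2223 and 1727 TPM in testes (log2 fold change -0.65, standard error 0.24, edgeR adjusted p = 0.017), and it was abundant in both organs. Its ranges did not overlap, but the call was lost without ovary replicate 1 (-0.55) or testis replicate 2 (-0.44). For the cap-binding protein, eIF4E1 had 1377, 982 and 225 TPM in ovaries, against 278, 576 and 521 TPM in testes (log2 fold change 0.90, standard error 0.48, edgeR adjusted p = 0.086) with overlapping ranges and was called higher in ovaries without ovary replicate 3 (1.29). A further 4 eIF4E genes were called higher in testes, led by eIF4E4 at 0.11, 0.02 and 0 TPM in ovaries, against 824, 1192 and 815 TPM in testes (log2 fold change -14.80, standard error 1.38, edgeR adjusted p = 6.8e-10).

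All 14 testis copies of proteasome subunits were called higher in testes at a fold of at least 8 (median -12.31, or -11.70 with 3 genes at their floor), while of the 14 core subunits 6 were called higher in ovaries and 0 in testes. The core count in ovaries was near the 37.3% of all genes. Of all genes, 37.4% were called higher in testes at a fold of at least 8. With DESeq2 the core subunits gave 5 higher in ovaries and 4 in testes. Prosalpha6T had 0.08, 0.04 and 0.01 TPM in ovaries, against 275, 176 and 199.7 TPM in testes (log2 fold change -12.50, standard error 1.22, edgeR adjusted p = 1.5e-09). The core subunit gene Prosalpha6 had 215, 212 and 167 TPM in ovaries, against 50.1, 48.2 and 56.4 TPM in testes (log2 fold change 2.10, standard error 0.24, edgeR adjusted p = 1.8e-08). Among 80 nuclear genes of oxidative phosphorylation, 22 are named as copies, and 21 of these were called higher in testes at a fold of at least 8 (median -12.95). The exception was ND-MNLL, whose name ends like those of the copies, and which was called higher in ovaries (log2 fold change 1.49, standard error 0.29, edgeR adjusted p = 5.6e-05), a call lost with DESeq2 (0.20) and with the day 3 libraries alone (0.76). Of the other 58 genes, 27 were called higher in ovaries and 4 in testes (median 0.85). Across all 80 the counts were 28 higher in ovaries and 25 in testes, which became 15 and 39 with DESeq2. The shares over all genes were 37.3% and 44.9%, and these ovary counts are not read as a result about the genes. COX4L, a copy of a cytochrome oxidase subunit, had 0.53, 0.63 and 0.09 TPM in ovaries, against 841, 526 and 775 TPM in testes (log2 fold change -10.77, standard error 0.85, edgeR adjusted p = 3.7e-11). Its partner COX4 had 116, 198 and 125 TPM in ovaries, against 41.9, 31.1 and 32.5 TPM in testes (log2 fold change 2.20, standard error 0.38, edgeR adjusted p = 8.9e-06). Of the 58, ND-B8, a subunit of complex I, was the one at least 8-fold higher in testes, at 0, 0.22 and 0 TPM in ovaries, against 124, 95.3 and 143 TPM in testes (log2 fold change -10.54, standard error 0.85, edgeR adjusted p = 5.4e-11).

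Sex determination genes were mostly higher in ovaries, and 3 were called in neither direction. Of 12 tested, 8 were called higher in ovaries and 1 in testes (median 2.10), beside 37.3% and 44.9% of all genes. DESeq2 gave 6 and 4. Sxl, the female switch gene that also maintains female germ cells, had 284, 173 and 231 TPM in ovaries, against 4.62, 12.2 and 9.76 TPM in testes (log2 fold change 5.09, standard error 0.40, edgeR adjusted p = 2.9e-11). The splicing regulator tra, which Sxl controls, had 36.9, 28.1 and 14.8 TPM in ovaries, against 6.80, 9.53 and 8.04 TPM in testes (log2 fold change 1.43, standard error 0.21, edgeR adjusted p = 7.4e-07). For dsx, which encodes the male and female transcription factors at the end of the pathway, the values were 1.51, 2.32 and 0.42 TPM in ovaries, against 0.69, 2.33 and 1.72 TPM in testes (log2 fold change -0.10, standard error 0.47, edgeR adjusted p = 0.85), and the ranges overlapped. The gene called higher in testes was fru, a transcription factor gene with sex-specific splicing, at 3.95, 4.62 and 0.64 TPM in ovaries, against 9.77, 22.1 and 19.04 TPM in testes (log2 fold change -1.81, standard error 0.51, edgeR adjusted p = 0.0024). Neither tra2, the partner of tra, nor Mettl3, the m6A methyltransferase, was called (-0.03 and 0.24 on the log2 scale, edgeR adjusted p = 0.94 and 0.61). With DESeq2 the calls in testes included tra2 (-1.35) and dsx (-1.39), Mettl3 was at -1.08 and called higher in testes, and the ovary call at tra was lost (0.14), as it was with the day 3 libraries alone (0.70).

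In total RNA per gene, regulators of germline sex did not all follow their names. The female germline transcription factor ovo had 145, 106 and 124 TPM in ovaries, against 0.12, 0.37 and 0.27 TPM in testes (log2 fold change 9.30, standard error 0.68, edgeR adjusted p = 1.0e-11). The gene otu, which acts with it in the female germline, had 552, 270.1 and 88.3 TPM in ovaries, against 0.48, 1.81 and 1.79 TPM in testes (log2 fold change 7.86, standard error 0.73, edgeR adjusted p = 4.2e-10). Of the 4 genes listed for the male germline, bol and kmg were called higher in testes, and Phf7 and bam higher in ovaries. Phf7, a chromatin reader that promotes male germline identity, had 98.2, 39.4 and 83.9 TPM in ovaries, against 11.5, 16.1 and 14.4 TPM in testes (log2 fold change 2.51, standard error 0.33, edgeR adjusted p = 1.7e-07). These values sum all Phf7 transcripts. The mean Phf7 transcript length also differed, at 2222, 2221 and 2224 nt in ovaries, against 2304, 2398 and 2326 nt in testes (log2 ratio -0.08, limma adjusted p = 0.035). The gene bam, which starts germ cell differentiation in both sexes, had 11.4, 7.28 and 6.40 TPM in ovaries, against 1.49, 2.5 and 2.36 TPM in testes (log2 fold change 2.14, standard error 0.22, edgeR adjusted p = 2.5e-09). The partner of bam, bgcn, ran the other way, at 0.14, 0.13 and 0.05 TPM in ovaries, against 12.3, 24.4 and 25.9 TPM in testes (log2 fold change -7.47, standard error 0.37, edgeR adjusted p = 2.5e-14). None of these ranges overlapped.

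In the meiosis list calls went both ways. Of 18 tested, 9 were called higher in ovaries, 5 in testes and 4 in neither (median 1.31), and DESeq2 gave 8 and 8 (median 0.03). Across all genes the shares were 37.3% in ovaries and 44.9% in testes, and the counts are not read as a result about the list. With the day 3 libraries alone the median was -0.34. The kinesin nod, which holds chromosomes on the female spindle, had 58.8, 44.0 and 121 TPM in ovaries, against 0.36, 0.57 and 0.61 TPM in testes (log2 fold change 7.61, standard error 0.67, edgeR adjusted p = 2.0e-10). The gene c(3)G, the transverse filament of the synaptonemal complex, had 32.3, 26.4 and 10.5 TPM in ovaries, against 1.5, 5.29 and 5.29 TPM in testes (log2 fold change 2.70, standard error 0.46, edgeR adjusted p = 7.5e-06). Male flies do not form this complex. The gene cona, which encodes a central element of it, had 1.49, 2.94 and 0.63 TPM in ovaries, against 106, 116 and 132 TPM in testes (log2 fold change -6.01, standard error 0.46, edgeR adjusted p = 2.4e-11). The cohesion gene ord had 0.22, 0.26 and 0.12 TPM in ovaries, against 13.6, 18.5 and 22.1 TPM in testes (log2 fold change -7.23, standard error 0.35, edgeR adjusted p = 1.5e-14). The recombination gene mei-218 had 28.6, 11.3 and 6.74 TPM in ovaries, against 39.0, 124 and 139 TPM in testes (log2 fold change -2.52, standard error 0.44, edgeR adjusted p = 1.3e-05). Of the genes that hold homologues together in male meiosis, uno had 42.5, 23.5 and 17.4 TPM in ovaries, against 186, 215 and 249.6 TPM in testes (log2 fold change -2.87, standard error 0.21, edgeR adjusted p = 1.5e-11). SA2 had 0.02, 0.03 and 0 TPM in ovaries, against 3.87, 8.30 and 8.15 TPM in testes (log2 fold change -8.64, standard error 0.91, edgeR adjusted p = 4.9e-09). The gene tef, which acts on autosomes in males, had 156, 56.8 and 32.1 TPM in ovaries, against 1.16, 2.88 and 3.70 TPM in testes (log2 fold change 5.09, standard error 0.60, edgeR adjusted p = 2.5e-08). The strongest 2 testis calls of the meiosis list, cona and ord, did not overlap with ovaries by a wide margin.

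In the cyst lineage list 4 of 10 were called higher in ovaries and 5 in testes, and in the follicle cell list 4 of 14 in each direction, with DESeq2 counts of 3 and 6 and of 3 and 7. These shares are near or below those of all genes, 37.3% in ovaries and 44.9% in testes, and are no result about the lists. Chinmo, which maintains male identity in the somatic stem cells of the testis, had 0.20, 0.31 and 0.05 TPM in ovaries, against 42.2, 113 and 87.8 TPM in testes (log2 fold change -7.39, standard error 0.74, edgeR adjusted p = 1.6e-09). The somatic Maf factor tj had 59.6, 78.4 and 11.2 TPM in ovaries, against 0.77, 1.82 and 1.39 TPM in testes (log2 fold change 5.34, standard error 0.55, edgeR adjusted p = 2.9e-09). The transcription factor so, which acts with eya in differentiating cyst cells, had 0.51, 1.17 and 0.13 TPM in ovaries, against 5.62, 9.67 and 7.95 TPM in testes (log2 fold change -3.56, standard error 0.60, edgeR adjusted p = 6.9e-06). The border cell gene slbo had 1.30, 1.97 and 0.10 TPM in ovaries, against 0, 0.01 and 0.01 TPM in testes (log2 fold change 7.59, standard error 1.15, edgeR adjusted p = 1.5e-06). The chinmo and so ranges were far apart, and eya overlapped at -0.36 (edgeR adjusted p = 0.38) but was called higher in testes without ovary replicate 2 (-1.003), with no filter (-0.92) or with DESeq2 (-1.64). Ovary replicate 3 was lowest of the ovaries for chinmo, tj, so and slbo, as for the eggshell genes.

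In the JAK-STAT and BMP pathways a ligand and a receptor were higher in opposite organs. In the JAK-STAT list 5 of 9 were called higher in ovaries and 2 in testes, which became 2 and 3 with DESeq2, beside 37.3% and 44.9% of all genes. The receptor dome had 82.0, 46.5 and 47.7 TPM in ovaries, against 6.51, 16.6 and 14.7 TPM in testes (log2 fold change 2.42, standard error 0.38, edgeR adjusted p = 2.6e-06). The ligand upd1, made by the testis hub and by polar cells of the ovary, had 0.77, 1.51 and 0.10 TPM in ovaries, against 17.1, 34.6 and 20.4 TPM in testes (log2 fold change -4.92, standard error 0.71, edgeR adjusted p = 7.1e-07). In the BMP list 4 of 8 were called higher in ovaries and 1 in testes, and 3 and 2 with DESeq2. The receptor put had 73.3, 38.9 and 49.8 TPM in ovaries, against 3.01, 6.55 and 5.67 TPM in testes (log2 fold change 3.61, standard error 0.26, edgeR adjusted p = 7.2e-12). The ligand dpp had 4.17, 5.94 and 0.21 TPM in ovaries, against 15.7, 28.6 and 19.5 TPM in testes (log2 fold change -2.51, standard error 0.76, edgeR adjusted p = 0.0041). None of these 4 ranges overlapped. In the EGFR list 8 of 11 were called higher in ovaries and 0 in testes, led by stet, a rhomboid protease that releases the ligand, at 56.9, 63.3 and 120.1 TPM in ovaries, against 0.35, 0.47 and 0.69 TPM in testes (log2 fold change 7.49, standard error 0.58, edgeR adjusted p = 3.0e-11). With DESeq2 the EGFR counts were 4 and 2, with spi of opposite sign (-0.56, against 0.73 here). The call at spi was also lost with library size alone (0.37), with no filter (0.16) and with the day 3 libraries alone (-0.006). The insulin list gave 10 of 12 higher in ovaries and 2 in testes, and 4 and 2 with DESeq2. Ilp8, a relaxin-like peptide, had 141, 58.1 and 176 TPM in ovaries, against 6.15, 5.66 and 4.25 TPM in testes (log2 fold change 4.73, standard error 0.76, edgeR adjusted p = 3.6e-06). The transcription factor foxo had 47.6, 39.0 and 58.4 TPM in ovaries, against 0.66, 1.28 and 1.12 TPM in testes (log2 fold change 5.86, standard error 0.36, edgeR adjusted p = 7.4e-13). The insulin-like peptides Ilp2 and Ilp3, called higher in testes, were at most 0.58 and 1.53 TPM there and had no count in ovaries, which gives at least 4.46-fold and 18.4-fold higher.

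Ecdysone genes were called higher in ovaries at 9 of 12 and in testes at 1 (median 3.93), beside 37.3% and 44.9% of all genes. The receptor EcR had 65.7, 36.7 and 30.9 TPM in ovaries, against 0.45, 1.52 and 1.14 TPM in testes (log2 fold change 5.50, standard error 0.40, edgeR adjusted p = 8.4e-12). Its partner usp had 194, 126 and 68.1 TPM in ovaries, against 3.47, 8.34 and 5.17 TPM in testes (log2 fold change 4.62, standard error 0.32, edgeR adjusted p = 3.7e-12). Of the enzymes that make the hormone, spo had 7.79, 5.98 and 1.77 TPM in ovaries, against 0.01, 0.04 and 0.02 TPM in testes (log2 fold change 8.05, standard error 0.92, edgeR adjusted p = 1.5e-08). The gene phtm had 2.09, 3.77 and 1.51 TPM in ovaries, against 0, 0 and 0 TPM in testes, at least 76.9-fold higher in ovaries given no count in testes. The last enzyme, shd, which converts ecdysone to its active form, went the other way at 0.45, 0.67 and 0.15 TPM in ovaries, against 4.26, 4.95 and 6.71 TPM in testes (log2 fold change -2.69, standard error 0.40, edgeR adjusted p = 1.3e-06). Every range named here was separate between the organs.

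Dosage compensation RNAs marked the testes. The non-coding roX1 had 0.28, 0.11 and 0.02 TPM in ovaries, against 18.2, 21.0 and 15.2 TPM in testes (log2 fold change -6.92, standard error 0.80, edgeR adjusted p = 1.8e-08). The gene roX2 had 0, 0.05 and 0.09 TPM in ovaries, against 1.35, 0.92 and 1.34 TPM in testes (log2 fold change -4.54, standard error 0.71, edgeR adjusted p = 2.3e-06). These RNAs are part of the complex that raises X transcription in male somatic cells. The gene for its male-limited subunit, msl-2, had 3.45, 3.07 and 1.18 TPM in ovaries, against 2.70, 6.18 and 3.75 TPM in testes (log2 fold change -0.59, standard error 0.32, edgeR adjusted p = 0.089), with overlapping ranges. It was called higher in testes without ovary replicate 2 (-0.79), with DESeq2 (-1.87), with library size alone (-0.89), with no filter (-1.16) and with the day 3 libraries alone (-1.32). Of the 7 genes of this list, 4 were called higher in ovaries and 2 in testes, beside 37.3% and 44.9% of all genes. DESeq2 gave 1 and 4. The genes msl-1, msl-3 and mof were called higher in ovaries at 4.62, 1.66 and 2.08 on the log2 scale (edgeR adjusted p = 3.5e-08, 7.1e-05 and 3.3e-04). The call at msl-3 was lost with DESeq2 (0.35) and with the day 3 libraries alone (0.91), and that at mof with DESeq2 (0.75). The gene mle was called at 0.59, which was -0.71 with DESeq2 and was not called without ovary replicate 1 (0.48), testis replicate 1 (0.50) or testis replicate 3 (0.59). Its call was also lost with library size alone (0.25), with no filter (0.02) and with the day 3 libraries alone (-0.15).

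Genes of the X leaned towards the ovary. Of 2262 X-linked genes tested, 50.1% were called higher in ovaries and 32.98% in testes (median 1.08), against 35.0% and 47.1% of 12469 genes on the 4 large autosome arms (median -0.81). With DESeq2 the X gave 37.1% and 42.6%, and the autosomes 21.4% and 58.1%, so that the direction on the X changed and its place above the autosomes did not. X-linked genes took 19.05%, 18.97% and 17.4% of TPM in ovaries, against 10.4%, 9.94% and 9.75% in testes. Genes of chromosome 4 were called higher in ovaries at 55 of 103 and in testes at 23, and at 34 and 35 with DESeq2. On the Y, 55 of 61 tested genes were called higher in testes and 0 in ovaries. Among non-coding RNAs 214 of 1852 were called higher in ovaries and 1394 in testes, 1321 of them at a fold of at least 8 in testes, beside 5313 and 5222 of 12883 protein-coding genes. Counting by strand is not stated, so reads of a non-coding RNA and of a gene it overlaps may not be told apart. Pseudogenes were called higher in ovaries at 24 of 164 and in testes at 99.

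**Figure D4:**
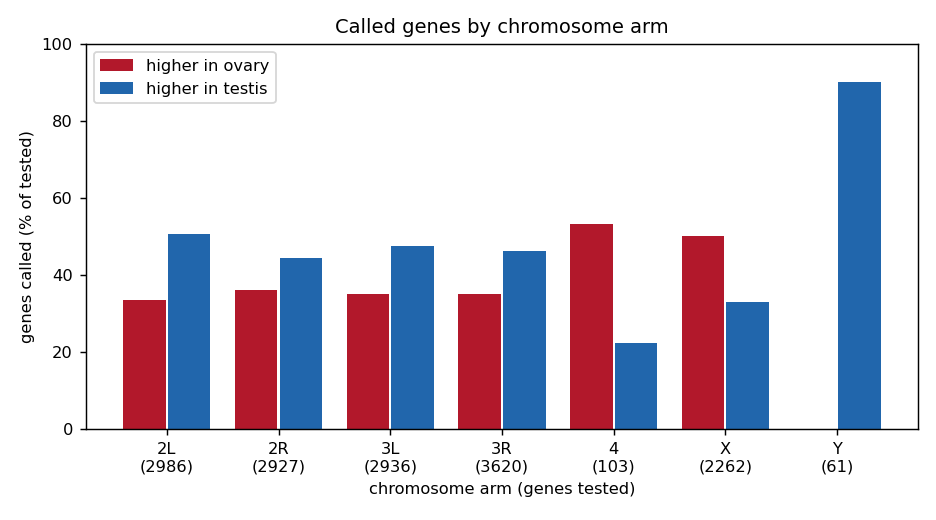
Share of tested genes called higher in ovaries (red, left bars) and higher in testes (blue, right bars) on each chromosome arm, as a percentage, with the number of tested genes under each arm. On the X and chromosome 4 the ovary bar is the taller, on the other autosome arms the testis bar, and on the Y there is no ovary bar. With DESeq2 the testis share is the larger on the X too.

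The same gene can also give different transcripts in the 2 organs, and the deposited length of a gene, a mean over its transcripts weighted by their abundance, shows this apart from its level. Of 4522 genes with more than 1 length and at least 30 counts in every library, 31 were at least 1.5 times longer in ovaries (0.686%) and 19 in testes (0.42%) at an adjusted p under 0.05 by limma. The chinmo gene (chr2L:1651258-1704682, plus strand, BDGP6, the dm6 assembly) had a mean transcript of 11535, 11694 and 11850.0 nt in ovaries, against 5528, 4997 and 5145 nt in testes (log2 ratio 1.16, standard error 0.042, limma adjusted p = 1.5e-04), a difference beside its lower level in ovaries. The centrosome protein gene cnn had 4277, 4247 and 4314 nt in ovaries, against 2184, 2085 and 2138 nt in testes (log2 ratio 1.00, standard error 0.019, limma adjusted p = 1.9e-05). The RNA-binding protein gene Syp had 6544, 6609 and 6904 nt in ovaries, against 2963, 2979 and 3009 nt in testes (log2 ratio 1.16, standard error 0.023, limma adjusted p = 2.1e-05). All 3 were longer in ovaries, with no overlap. The other genes named by smallest p were CG31287, CG43110, shd and xmas, which were longer in ovaries, and primo-1, ND-MWFE, CG6726, Vmat, CG33170 and Maf1, which were longer in testes. The vesicular monoamine transporter Vmat had 2523, 2467 and 2458 nt in ovaries, against 6521, 7141 and 7101 nt in testes (log2 ratio -1.48, standard error 0.041, limma adjusted p = 6.6e-05). The phosphatase gene primo-1 had 597, 594 and 591 nt in ovaries, against 1336, 1336 and 1336 nt in testes (log2 ratio -1.17, standard error 0.004, limma adjusted p = 1.6e-07). At CG43110 the length was 7504, 8272 and 7599.7 nt in ovaries, against 1692, 1727 and 1716 nt in testes (log2 ratio 2.19, standard error 0.042, limma adjusted p = 2.0e-05). The levels of chinmo, CG31287, Syp and CG43110 were far lower in ovaries (log2 fold changes -7.39, -6.80, -5.59 and -5.57). Their ovary lengths thus rest on fewer reads than their testis lengths.

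Within the sex determination cascade, tra, whose female splicing removes a stretch of its long exon, had 711, 709 and 709 nt in ovaries, against 862, 862 and 862 nt in testes (log2 ratio -0.28, standard error 0.002, limma adjusted p = 4.1e-07). The difference was small but the libraries of each organ lay within 3 nt of each other. It was below the ratio of 1.5 and so not among the 31 and 19. For fru the lengths were 5507, 5478 and 5207 nt in ovaries, against 3831, 3772 and 3734 nt in testes (log2 ratio 0.51, standard error 0.026, limma adjusted p = 4.5e-04), also under that ratio. At dsx the lengths were 3739, 3669.7 and 3709.7 nt in ovaries, against 3631, 3975 and 4084 nt in testes and at Sxl 2860.2, 2964 and 2914 nt in ovaries, against 2342, 2753 and 2648 nt in testes, with limma adjusted p = 0.37 and 0.14.

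**Figure D5:**
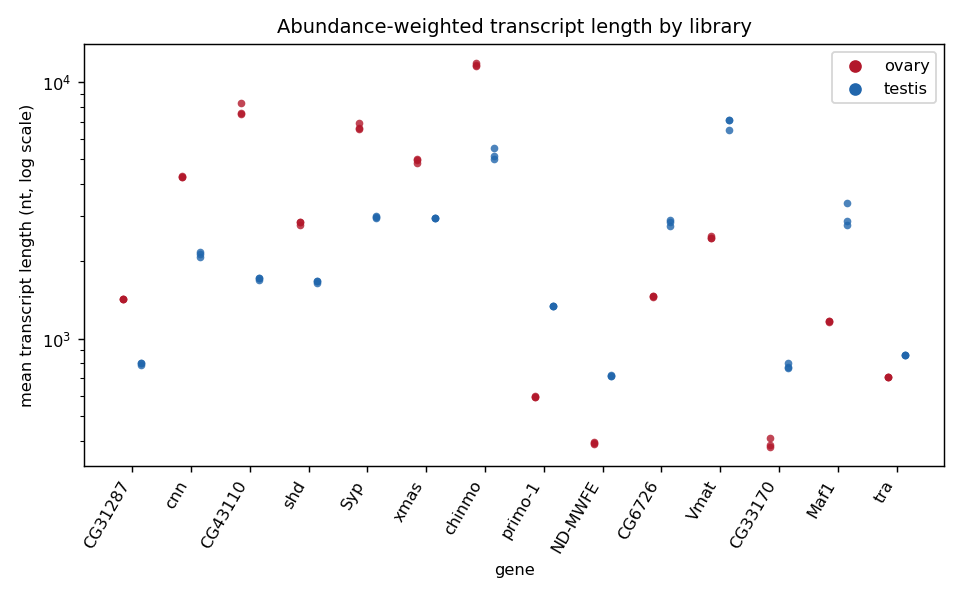
Mean transcript length weighted by abundance, in nucleotides on a log scale, for 14 genes in the 3 ovary libraries (red, left) and the 3 testis libraries (blue, right). Genes from CG31287 to chinmo are longer in ovaries and genes from primo-1 to tra longer in testes, and for none do the ranges overlap.

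The day 3 difference was set against days 1 and 9, which used other libraries of the same fit. The libraries called day 1 here carry that time label, but their titles give day 0. Between day 3 and day 1 the difference of ovary over testis had moved towards the ovary at 58 genes (0.387%) and towards the testis at 2476 genes (16.5%). Phf7 was among the 58: at day 1 it had 28.3 and 36.6 TPM in ovaries, against 20.1, 15.2 and 15.4 TPM in testes, and at day 3 the values given above. Cht5, a chitinase, was among the 2476: at day 1 it had 17.4 and 4.96 TPM in ovaries, against 0.80, 0.38 and 0.34 TPM in testes, and at day 3 it had 0.06, 0.01 and 0 TPM in ovaries, against 0.17, 0.32 and 0.29 TPM in testes. The counts rested on the 2 day 1 ovaries: without replicate 1 they became 0 and 129, without replicate 2 143 and 2759, and a fit of the libraries of those days alone gave 0 and 0. At day 3 the difference lay further towards the ovary than at day 9 for 1 gene (0.00667%) and further towards the testis for 0 (0.0%), with 391 and 195 genes at an unadjusted p under 0.05 in edgeR, and 13 and 6 genes called by DESeq2. At day 9, with libraries not used for day 3, 5012 of the 5595 genes called higher in ovaries at day 3 were called so too (89.6% of day 3 and 95.8% of 5233 at day 9), as were 6539 of the 6736 testis genes (97.1% of day 3 and 93.9% of 6963). None was called in opposite directions. At a fold of at least 8, 1606 ovary genes were shared (70.5% of day 3 and 92.6% of day 9) and 5396 testis genes (96.3% and 94.1%).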

How the data were processed

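Whole ovaries and testes were measured by poly(A) RNA-seq. The authors processed the reads with FastQC 0.11.9, Trim Galore 0.6.4, Bowtie2 and RSEM against dm6, as listed in the submitters' processing notes, and deposited for each library the expected count per gene, which is an estimated number of fragments, not normalized and not whole. The deposited TPM is scaled by RSEM for length and library, and the deposited length is the mean over the transcripts of a gene, in nucleotides, weighted by their abundance in that library. RSEM divides reads among near-identical copies, so values of recent paralogues are uncertain, as are those of overlapping genes, since the use of strand is not given in the sources used here. The deposited FPKM was not used. Symbols and positions came from the Ensembl annotation of BDGP6 (17710 of 17807 identifiers).

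Expected counts were rounded, filtered with filterByExpr and scaled by TMM, and all 33 wild-type libraries were fitted with a coefficient for each tissue and day by the quasi-likelihood test of edgeR 4.0.16 (R 4.3.3) with Benjamini-Hochberg adjustment over 14995 genes. Standard errors were derived from the F statistic. Lengths were compared with limma 3.58.1. The fit was tested on simulated data in which few genes changed, evenly in both directions. That simulation does not test the scaling where most genes differ. Day 3 totals ranged from 32774814 to 144340740 counts, and a floor of 3 counts covers counting error only. Replicates of a tissue differed by more than sampling noise, and the labels do not say whether pools came from separate cultures. The p-values thus measure the spread between pools. In edgeR that spread was estimated over all 33 wild-type libraries, and for lengths over the day 3 libraries alone. Groups came from the sample titles, except that the day 1 groups came from the time label, whose titles give day 0, and replicate numbers came from the titles. The article's methods available here do not describe the bulk libraries, and the chinmoST libraries were not used.

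The text names members of the gene lists and of the pairs of copies, the 12 genes of each direction with the highest mean TPM in their tissue among those at least 8-fold higher without overlap, and for days and lengths the 6 genes of each direction with the smallest p. Members, lists and tests were chosen with earlier results of these data known. The list members mnm, betaTub60D, Med and nvd were not analysed here. Alternatives were DESeq2 1.42.0, library size alone, no filter, day 3 and the compared day alone, the replicate block, log2(TPM + 1) and log2(TPM + 0.1) with limma, a minimum of 100 counts or effective length for lengths, and each library left out.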

Additional observations from a re-analysis of the deposited data

Results flagged for a closer look

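The difference of ovary over testis was itself compared between days, and where the test of that comparison passed, the result is given here. The counts were 58 genes that moved towards the ovary and 2476 that moved towards the testis between day 1 and day 3, and 1 gene that lay further towards the ovary at day 3 than at day 9. Only 2 ovary libraries represented day 1, which is their time label, while their titles give day 0. Without its replicate 1 the counts against day 1 were 0 and 129, and without its replicate 2 they were 143 and 2759.

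On the ovary side, the change from day 1 to day 3 was 3.65 for Cyp4s3, 1.64 for Glys, 3.58 for CG14218, 8.89 for lncRNA:CR45158, 1.77 for Phf7 and 2.34 for CG46314, in units of log2 (edgeR adjusted p between 0.0017 and 0.011). Glys, the glycogen synthase gene, had 93.0 and 106.8 TPM in day 1 ovaries, against 6.22, 5.28 and 4.48 TPM in day 1 testes, and 115.4, 105.3 and 116.5 TPM in day 3 ovaries, against 2.02, 2.77 and 2.56 TPM in day 3 testes. Its testis values at day 3 were below all those of day 1. At lncRNA:CR45158 no library of either organ passed 0.46 TPM on these days, and with no count in the day 1 ovaries its fitted change is no bound.

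On the testis side the change was -8.97 for CG8560, -8.19 for Cht5, -6.93 for PIG-Wb, -6.29 for Cpr49Ac, -7.36 for lncRNA:CR45622 and -6.53 for CG18477, in log2 units. CG8560 had 0.98 and 0.25 TPM in day 1 ovaries, against 55.0, 50.3 and 43.5 TPM in day 1 testes, and 0, 0 and 0 TPM in day 3 ovaries, against 55.5, 43.4 and 52.1 TPM in day 3 testes. Its testis values overlapped between the days, and the ovary trace of day 1 was not seen at day 3. With no count in the day 3 ovaries, the fitted change of CG8560 is no bound, and this holds for PIG-Wb, lncRNA:CR45622 and CG18477 as well. PPO2, a prophenoloxidase, differed between days 3 and 9 by 4.44 in log2 units (edgeR adjusted p = 0.036): it had 0.29, 0.55 and 0.11 TPM in day 3 ovaries, against 2.43, 2.94 and 3.09 TPM in day 3 testes, and 0.02, 0.14 and 0.06 TPM in day 9 ovaries, against 10.2, 11.6 and 17.4 TPM in day 9 testes. The causes of these differences were not tested.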

How the results depend on the processing

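The counts of genes called at day 3 stayed within 1.5 times of those reported under library size alone, no filter, log2(TPM + 0.1) and the replicate block. With DESeq2 3565 were higher in ovaries, and 882 at a fold of at least 8. The libraries of day 3 alone gave 1302 such ovary genes, and log2(TPM + 1) gave 1295 higher in ovaries and 2753 higher in testes at that fold, since the pseudocount shrinks folds of low genes. Leaving out 1 library gave 5291 to 5513 ovary genes and 6516 to 6739 testis genes, or 1985 to 2388 and 5468 to 5802 at a fold of at least 8. Of the main calls, 83.5% were called in the same direction with DESeq2, 57 genes were called in the opposite direction, and 78.2% were called with day 3 alone. With no filter 37.8% of the calls were higher in ovaries and 62.2% in testes.

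Between days 3 and 1, the genes moved towards the ovary and the testis numbered 145 and 2934 with DESeq2, 31 and 2788 with library size alone, 7 and 194 with log2(TPM + 1), 10 and 332 with log2(TPM + 0.1), and 0 and 0 with the compared days alone. Leaving out 1 library gave 0 to 360 and 129 to 2873, the 129 being without ovary day 1 replicate 1. Ovary genes moved by over 1.5 times without ovary day 3 replicates 1, 2 or 3 (96, 360 and 18), testis day 1 replicates 1 or 2 (27 and 23) and ovary day 1 replicates 1 or 2 (0 and 143), where the lone ovary left is assumed to vary like the other groups. Between days 3 and 9, the counts were 13 and 6 with DESeq2, 4 and 1 with log2(TPM + 1), 5 and 1 with log2(TPM + 0.1), and 0 and 0 with library size alone, no filter or the compared days alone. Leaving out 1 library gave 0 to 3 ovary genes, with 2 without ovary day 3 replicate 3, 3 without ovary day 9 replicate 2, 1 without ovary day 3 replicate 1 and 0 without any other library, and 0 testis genes.

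The labels do not tie the replicate numbers of ovaries and testes to each other, and same-numbered ovary and testis libraries correlated at -0.152, 0.116 and -0.012 in their deviations. With the replicate block the calls were 5096 higher in ovaries and 6388 in testes, 0 and 0 for both day contrasts, and 26 and 11 for lengths. Lengths gave 27 to 39 genes longer in ovaries and 12 to 27 longer in testes with 1 library left out, 12 being without testis replicate 2.

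Single genes changed sign with DESeq2 at mael (-0.596), Panx (-0.340), Taf4 (-0.044), Taf6 (-0.060), Mettl3 (-1.084), spi (-0.565) and mle (-0.705), with day 3 alone at mael (-0.046), spi (-0.006) and mle (-0.15), and with log2(TPM + 1) at CG18477 between days 3 and 1 (0.094). Of the other values for named genes under alternatives, 2245 kept direction and call, 108 lost the call and 18 gained one. The causes were not tested beyond what the settings state. Precision was limited by 3 pools per organ, by the ovary of replicate 3, and for genes absent from one organ by the floor.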

Other observations

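Gene families were also grouped by the shared start of their symbols, which gave 70 groups of at least 8 tested genes (1264 genes), counted after their values were seen. In 11 groups at least 80% of the members were called higher in ovaries, and in 7 at least 80% were called higher in testes. Across all genes tested the shares were 37.3% and 44.9%.

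Some of the groups with many ovary calls were large. Of 72 mRp genes, which encode proteins of the mitochondrial ribosome, 64 were called higher in ovaries and 0 in testes (median log2 difference 1.97), and DESeq2 called 33 and 2. Of 30 Polr genes, which encode subunits of the RNA polymerases, 28 were called higher in ovaries and 0 in testes (median 2.60), and DESeq2 called 19 and 2. All 10 Integrator subunit genes (Int) were called higher in ovaries, and 8 by DESeq2. Of 21 nucleoporin genes (Nup), 17 were called higher in ovaries and 1 in testes, and DESeq2 called 11 and 3. Of 15 Taf genes, which encode subunits of the general transcription factor TFIID or copies of them, 11 were called higher in ovaries and 1 in testes, and DESeq2 called 4 and 4. Histone genes (His) were higher in ovaries for 79 of 97 and in testes for 14. They are near-identical repeats among which reads are divided, and most of their RNA lacks the poly(A) tail by which the libraries were captured.

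Other families were high in testes. Of 37 odorant-binding protein genes (Obp), 32 were called higher in testes and 1 in ovaries (median -6.40, or -4.14 with 23 genes at their floor). Of 17 Osi genes, 16 were called higher in testes and 0 in ovaries, though the whole group summed to 0.11 to 1.30 TPM in ovaries, against 31.8 to 39.6 TPM in testes. Of 21 dpr genes, which encode cell-surface immunoglobulin proteins of neurons, 17 were called higher in testes and 2 in ovaries. Of 11 tubulin tyrosine ligase-like genes (TTL), 9 were called higher in testes and 2 in ovaries.

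Of 25 V-ATPase genes (Vha), 11 were called higher in ovaries and 13 in testes. These counts lie near the 37.3% and 44.9% of all genes and are not read as a result about the family. DESeq2 called 6 and 13. The pair Vha68-1 and Vha68-2 is an example with a gene on each side. Vha68-2 had 369 TPM, 269 TPM and 135 TPM in ovaries, against 19.03 TPM, 53.5 TPM and 44.6 TPM in testes (log2 fold change 2.88, standard error 0.32, edgeR adjusted p = 9.9e-09). Vha68-1 had 1.19 TPM, 1.39 TPM and 1.33 TPM in ovaries, against 18.97 TPM, 22.6 TPM and 24.4 TPM in testes (log2 fold change -3.85, standard error 0.35, edgeR adjusted p = 3.2e-10). Both genes were chosen after their values were seen.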
